A study of Mus musculus with 12 samples.

Results

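The genes described here are the protein-coding genes that still carry, in the deposited table, the provisional name of a 1700 clone from the RIKEN mouse cDNA collection. A gene was taken when its symbol was 1700 followed by 3 digits, a letter, 2 digits and Rik and when it had at least 1 transcript with a RefSeq mRNA identifier (NM_), and the rule used no expression value. This gave 111 of the 24516 genes in the table, and 20702 of these genes have an NM_ transcript. Testes of 12 male C57BL/6 mice, an inbred laboratory strain, were sequenced at postnatal month 3 (3M), 6 (6M), 12 (12M) and 18 (18M), with 3 mice and 3 libraries at each age, no treatment and no genetic change. Whole testes were used, so fewer cells of a type and less RNA per cell cannot be told apart in any of the differences given below. The labels name no sequencing batch.

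The RIKEN project sequenced full-length cDNAs from many mouse tissues and named genes without a known function after the clone, and libraries of the 1700 series were made from adult testis. The testis holds germ cells in a continuous series, from spermatogonia through spermatocytes in meiosis to haploid spermatids, beside the somatic Sertoli, Leydig and peritubular cells. Spermatids build the acrosome and the flagellum and pack their chromatin with protamines, and many genes are transcribed strongly in these cells and little elsewhere. Several clones of this kind were later named after work on their products. Of the 111 genes, 28 have another symbol in the RefSeq gene table. 1700034O15Rik became Llcfc1, a sperm factor required for fusion with the egg, 1700024P04Rik became H2bl1 and 1700012L04Rik became H2al1m, which are histone variants of the male germ line, and 1700006E09Rik became Cfap97d1, a gene of the sperm flagellum. That table lists 3 of the genes (1700010D01Rik, 1700013D24Rik and 1700067P10Rik) as lncRNA although the deposited transcripts have NM_ identifiers.

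The start regions of these genes were examined for short letter strings that are recognised by factors of spermatogenesis. RFX factors, which drive genes of cilia and of the flagellum, bind to sites with the letters GTTGCC, A-MYB, the regulator of meiotic genes, to CAACTG, and CREM, the activator of many spermatid genes, to TGACGT. RefSeq promoters (GRCm38.p6) were at hand for 93 of the genes and for 16393 coding genes of the table, and the 250 bases before the start were searched on both strands. GTTGCC was present in 19 of 93 genes (20.4%) and in 9.82% of all coding promoters. CAACTG was present in 14 genes (15.1%), against 9.82% of all. In the most similar set, 62 coding genes of another RIKEN testis series (4930402F06Rik and its like), GTTGCC was present in 16.1% and CAACTG in 19.4%. TGACGT was found in 6 genes (6.45%), against 7.95% of all. The TATA letters TATAAA were found in 10 genes (10.8%), against 12.1% of all. A match of letters is a description and no sign of binding, and GTTGCC and CAACTG can overlap.

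The 120 bases before the start of 5 genes are given below, 5′ to 3′ on the strand of the gene, with matches to the first 3 strings on either strand in capitals (GGCAAC is GTTGCC and CAGTTG is CAACTG read on the other strand). They are shown because 1700029F12Rik had the highest level, 1700021F07Rik the smallest p-value for a slope on age, and the other 3 are examples of the 6 genes with 2 matches in these bases (the remaining ones are 1700061G19Rik, 1700066M21Rik and 1700125H20Rik). The regions are chr13:97034363-97034482 (minus strand) for 1700029F12Rik, chr17:8988213-8988332 (plus) for 1700010I14Rik, chr2:173522472-173522591 (plus) for 1700021F07Rik, chr5:30465957-30466076 (plus) for 1700001C02Rik and chr13:68597319-68597438 (plus) for 1700001L19Rik, all of GRCm38, the build of mm10.
1700029F12Rik: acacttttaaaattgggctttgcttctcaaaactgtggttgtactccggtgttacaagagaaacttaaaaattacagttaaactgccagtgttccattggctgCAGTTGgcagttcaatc
1700010I14Rik: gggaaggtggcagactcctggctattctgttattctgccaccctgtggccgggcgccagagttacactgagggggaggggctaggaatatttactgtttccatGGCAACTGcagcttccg
1700021F07Rik: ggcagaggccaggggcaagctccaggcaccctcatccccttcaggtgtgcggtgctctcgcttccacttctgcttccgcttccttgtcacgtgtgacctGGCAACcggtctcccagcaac
1700001C02Rik: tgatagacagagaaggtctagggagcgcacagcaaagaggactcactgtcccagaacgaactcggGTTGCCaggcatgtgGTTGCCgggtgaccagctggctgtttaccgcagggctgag
1700001L19Rik: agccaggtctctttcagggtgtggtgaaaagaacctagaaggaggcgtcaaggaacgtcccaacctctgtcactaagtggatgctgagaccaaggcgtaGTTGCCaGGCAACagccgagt
The strings of 1700010I14Rik overlap, and those of 1700001L19Rik lie in opposite orientation with a single base between them. In these 5 genes the deposited NM_ transcript begins at the base after the printed region, and 88 of the 93 genes begin within 50 bases of the RefSeq start.

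Each library held 50924104 to 71803379 deposited reads, 94.3% to 95.0% of them in the transcript classes summed here (matching, contained in, or sharing a junction or exon with a reference transcript). The genes of the 1700 clones together took 1.34% to 1.62% of the reads in these classes. Sums over genes of libraries of the same age correlated with r between 0.994 and 0.996 (log2 scale, across genes). Haploid germ cell markers (Prm1, Prm2, Tnp1, Tnp2 and 8 others) were present in every library, with sums of 21422 to 29230 CPM (reads relative to library size after TMM normalization), which was the check of the labelled tissue. Libraries 12M-3 and 3M-2 stood at the upper and the lower end for the genes of the 1700 clones. The median slope and median fold changes of these genes are given with and without them. The shares of reads by age and the slopes of the other gene lists are given only with them.

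The 1700 clone genes were among the more abundant transcripts of the testis. Their names come from clones of adult testis libraries, so the naming itself favoured genes expressed in this tissue. The mean FPKM over the 12 mice, with the FPKM (fragments scaled for transcript length and library size) of all transcripts of a gene added up, had a median of 78.7, against 2.24 for all coding genes. Of the 111 genes, 43 had a mean FPKM of 100 or more, 55 lay between 10 and 100, 12 between 1 and 10, and 1 below 1. Among all coding genes 3.85% reached 100 FPKM, against 38.7% of the 1700 clone genes, and 59.2% reached 1 FPKM, against 99.1%. Ranked by mean FPKM, 52 of the 111 genes were among the first 1000 coding genes, and the median rank was 1065 of 20702. The 74 coding genes of that other RIKEN testis series had a median of 14.7 FPKM, and the 246 genes of the 1700 series without an NM_ transcript had a median of 8.94. The genes are short, with a median of 972 nt for the NM_ transcript and 4 exons, against 2382 nt and 7 exons for all coding genes, and 52.3% were under 1000 nt, against 16.1%. They were found on 20 chromosomes, most often on chromosome 8 (10 genes), with 6 on the X chromosome.

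**Figure D1:**
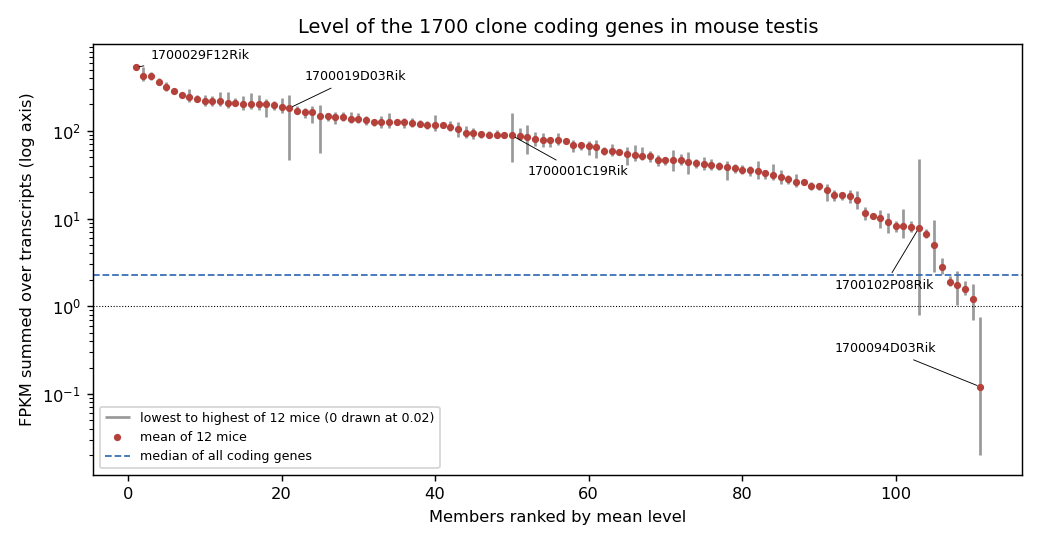
Mean FPKM (points, log axis) of the 111 coding genes of 1700 clones, ranked by level, with the lowest and highest of the 12 mice as grey lines and the median of all coding genes (2.24) as a dashed line. Most genes lie between 10 and 529 FPKM with a narrow range between mice, and 1700102P08Rik, 1700019D03Rik and 1700001C19Rik have wide ranges.

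The gene with the highest level was 1700029F12Rik (chr13:97021864-97034362, minus strand, 3 exons), whose product has no assigned name. Its FPKM was 523 ± 21.7 (SD, n = 3) in the 3M mice, 510.3 ± 13.0 in the 6M mice, 555 ± 25.9 in the 12M mice and 527 ± 31.9 in the 18M mice. Its levels at the 4 ages differed by about the spread between mice.

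1700003F12Rik (chr2:154548904-154550048, plus strand) followed with 402 ± 7.24 FPKM in the 3M mice, 386 ± 17.6 in the 6M mice, 435 ± 83.2 in the 12M mice and 469.6 ± 21.0 in the 18M mice. The large SD at 12M came from library 12M-3, with 445 CPM against 323 and 327 CPM in the other 2 mice of that age. 1700009N14Rik (422 FPKM), 1700013G24Rik (363 FPKM) and 1700074P13Rik (319 FPKM) came next. The remaining genes of the first 10 were 1700003E16Rik, 1700010I14Rik, 1700019N19Rik, 1700037H04Rik and 1700013F07Rik, at 285 to 220.1 FPKM, and the 10 genes together held 29.2% of the FPKM of the group. 1700003F12Rik and 1700009N14Rik differed by less than the spread between mice, so their order is not fixed.

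Genes with later names lay over the same range. Llcfc1 (1700034O15Rik) had a mean of 203 FPKM and H2bl1 (1700024P04Rik) 219 FPKM, while H2al1m (1700012L04Rik), a histone gene on the X chromosome, had 31.1 FPKM. Spata46 (1700015E13Rik), a gene of spermatogenesis, had 165 FPKM, Cfap97d1 (1700006E09Rik) 94.8 FPKM and Cfap299 (1700007G11Rik), named as a cilia and flagella gene, 68.3 FPKM. The lower part of the range held other renamed genes. Mtres1 (1700021F05Rik), a gene for a mitochondrial protein, had 18.6 FPKM. Lrmda (1700112E06Rik), a gene of melanocytes, had 4.97 FPKM, and Zfp974 (1700049G17Rik), a zinc finger gene, 1.75 FPKM.

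In at least 1 age, 110 of the 111 genes had a mean of 1 FPKM or more. The exception was 1700094D03Rik (chr3:90062796-90068347), which had 0 reads in 10 libraries and 118 and 139 reads in 6M-1 and 6M-3. Its single transcript ends at the same base as 3 of the 20 transcripts of the neighbouring gene 4933434E20Rik, which had 6645 to 10019 reads in every library, and reads on shared exons are divided between transcripts by the assembler. The reads of 1700094D03Rik are therefore uncertain.

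The next comparison asked whether the genes of the 1700 clones change as the testis ages. A slope on age was fitted to the reads summed per gene of the 12 libraries (edgeR, quasi-likelihood F-test, Benjamini-Hochberg adjustment over 18545 genes). No gene of the 110 tested passed an adjusted p of 0.05, and 0.41% of all genes passed it. At an unadjusted p of 0.05 or less there were 48 of 110, all with a positive slope. Of all genes 17.5% reached that p, 8.26% with a rise and 9.23% with a fall. Both directions together, these 48 genes became 33 without 3M-2, 35 without 18M-3 and 34 with NM_ transcripts only. The count was 56 without 12M-3 and 59 without 3M-1 or without 18M-1. The slope was positive for 105 of 110 genes, against 49.4% of all genes tested, and its median was 0.0107 log2 units per month, against -0.0002 for all genes. Without 12M-3, 105 of 111 slopes were positive with a median of 0.00948, and without 3M-2, 103 of 111 with a median of 0.00914. With DESeq2 as the test, 11 of the 110 genes passed, all rising, against 3.11% of all genes. The 11 genes included 1700021F07Rik, 1700011L22Rik, 1700037C18Rik, Spata46 and Efcab15 (1700023F06Rik), the last of which encodes a protein with EF-hand calcium-binding motifs. Without 12M-3, edgeR called 3 genes, all rising (1700001K19Rik, 1700021F07Rik and 1700037C18Rik), where 0.464% of all genes passed.

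Between 3M and 18M none of the 110 genes passed an adjusted p of 0.05 with a 2-fold change, and 0.0496% of all 18130 genes did. At an unadjusted p of 0.05 or less with that fold there was 1, 1700001C19Rik, which is described below, against 0.827% of all genes, and DESeq2 called 0, against 0.276% of all. Whatever the fold, 31 genes were higher and 1 was lower at an unadjusted p of 0.05 or less, against 6.28% and 7.25% of all genes. Both directions together, these 32 genes became 21 without 3M-2, 21 without 18M-2, 19 without 18M-3 and 18 with NM_ transcripts only. The log2 fold change had a median of 0.13, with the middle of the genes between 0.08 and 0.19 (quartiles), while the median of all genes was 0.00. It was positive for 105 of 110 genes, against 49.6% of all. In 37 genes (33.6%) every 18M mouse was above every 3M mouse, against 9.67% of all genes, and in 0 genes was every 18M mouse below, against 10.8% of all. Without 3M-2, the median was 0.087 and 94 of 110 values were positive. These differences are small: a log2 value of 0.13 is far below the 2-fold change asked for in a call.

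**Figure D2:**
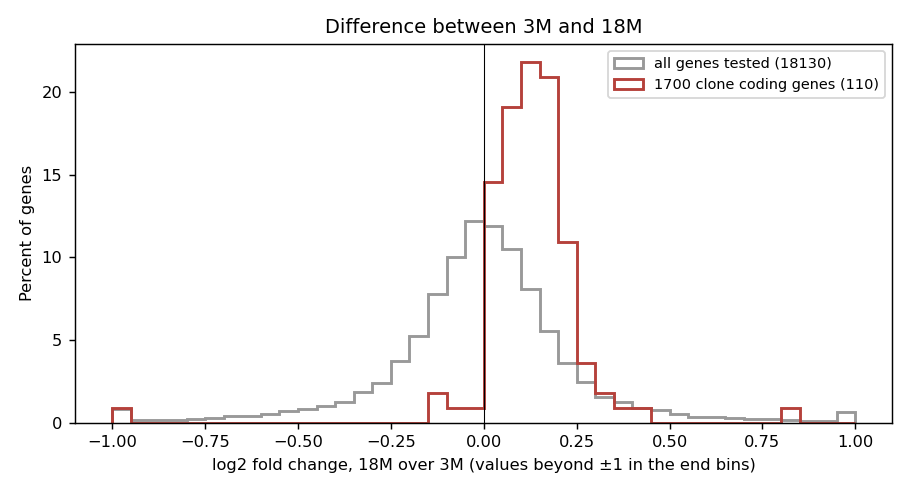
Distribution of the log2 fold change from 3M to 18M (x axis, in bins; y axis, percent of genes) for the 110 tested genes of 1700 clones (red) and all 18130 genes tested (grey). The red curve sits mostly to the right of 0, around its median of 0.13, and narrowly, and the single gene in the lowest bin is 1700001C19Rik.

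The steps between ages were uneven. From 3M to 6M the median log2 fold change was -0.01 and 53 of 110 genes were positive, against 52.2% of all genes. This step had no stable direction: without 3M-2 31 of 111 were positive with a median of -0.04, and without 3M-1 66 of 111 with a median of 0.02. From 6M to 12M the median was 0.13 and 102 of 110 were positive, against 49.8% of all genes, and at an unadjusted p of 0.05 or less 19 were higher and 1 was lower, against 4.14% and 4.58% of all. Both directions together, these 20 genes became 8 without 6M-1, 8 without 6M-2, 11 without 6M-3 and 33 without 12M-2, and 12 when only library size was used to normalize. Without 12M-3, the median of this step was 0.064 and 88 of 111 were positive. From 12M to 18M the median was 0.00 and 58 of 110 were positive, against 50% of all genes, while 86 of 110 were positive with a median of 0.073 without 12M-3 and 29 of 110 with a median of -0.04 without 12M-2. No gene passed the test in any of these steps, where 0.0331%, 0.0441% and 0.022% of all genes passed. At an unadjusted p of 0.05 or less with a 2-fold change there were 0, 1 and 2 genes, against 0.59%, 0.755% and 0.418% of all, and DESeq2 called 0, 0 and 1, against 0.116%, 0.182% and 0.0771% of all. The share of the reads in the classes used that fell on the 1700 clone genes was 1.39% ± 0.0442 (SD, n = 3) in the 3M mice, 1.38% ± 0.0025 in the 6M mice, 1.49% ± 0.113 in the 12M mice and 1.48% ± 0.0386 in the 18M mice.

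1700021F07Rik (chr2:173522592-173528502, plus strand, 4 exons), whose promoter is printed above, had the smallest p for a slope. Its CPM was 76.0, 77.3 and 83.2 in the 3M mice, 80.1, 79.3 and 75.4 in the 6M mice, 88.1, 85.2 and 95.1 in the 12M mice, and 94.1, 89.7 and 92.5 in the 18M mice. All mice of 12M and 18M were above all mice of 3M and 6M. The slope was 0.0173 ± 0.0036 log2 units per month (SE), with an adjusted p of 0.064 in edgeR and of 0.0015 in DESeq2. All its reads fell on 1 NM_ transcript, so no division between isoforms is involved.

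1700011L22Rik (chr8:79210430-79248583, minus strand) had 154, 137 and 145 CPM in the 3M mice, 154, 149 and 148 in the 6M mice, 163, 156 and 166 in the 12M mice, and 166, 164 and 172 in the 18M mice. Here too each mouse of the later ages was above each mouse of the earlier ages. Its slope was 0.0139 ± 0.0029, with an adjusted p of 0.067 in edgeR.

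1700037C18Rik (chr16:3905798-3908689, minus strand) had 98.8, 91.7 and 92.9 CPM at 3M and 112, 111 and 121 CPM at 18M, with 98.5, 96.8 and 98.2 at 6M and 107, 103 and 128 at 12M. The groups of 3M and 18M did not overlap, and its slope was 0.0202 ± 0.0046 with an adjusted p of 0.081 in edgeR. ccdc198 (1700011H14Rik), a coiled-coil gene, had 52.3 ± 3.04 CPM at 3M and 61.3 ± 2.11 CPM at 18M, with an adjusted p of 0.10 for the slope in edgeR. Pttg1ip2 (1700015F17Rik) had 67.4 ± 5.71 and 80.1 ± 3.6 CPM at these ages, with an adjusted p of 0.11 in edgeR. These 5 genes are the ones with the smallest p among positive slopes, and their differences from 3M to 18M lay between 0.20 and 0.28 on the log2 scale.

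**Figure D3:**
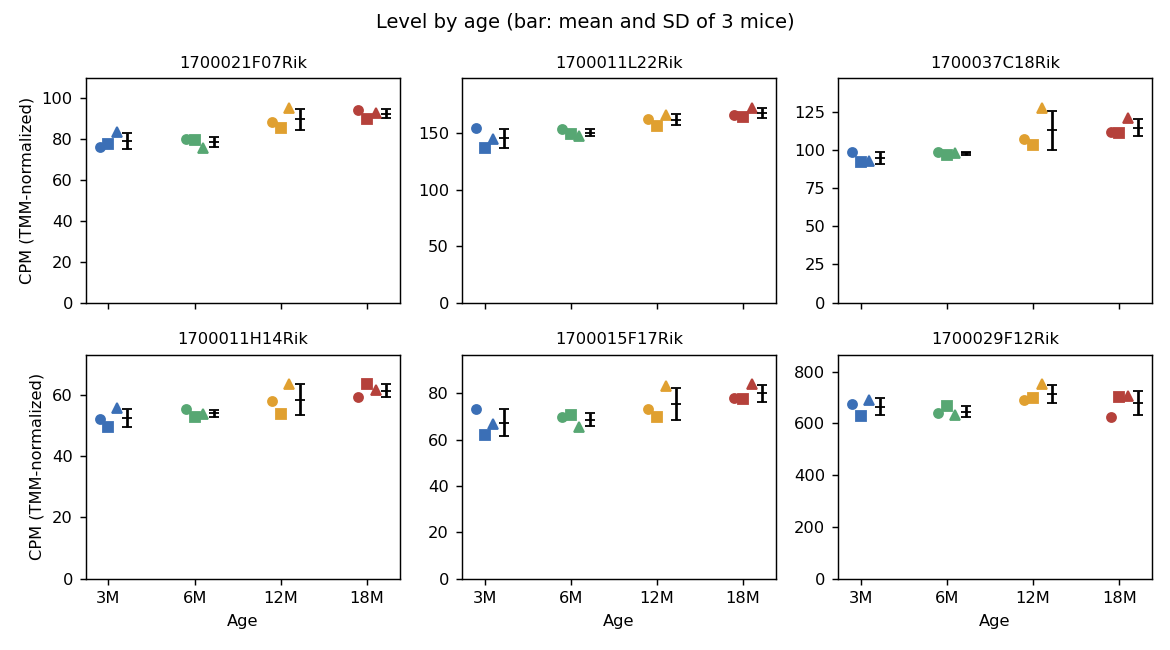
Level in CPM (y axis from 0) of the 5 genes with the smallest p among positive slopes and of 1700029F12Rik, the gene with the highest level, by age, with one symbol per mouse and the mean and SD of 3 mice as a bar. In 1700021F07Rik and 1700011L22Rik all 12M and 18M mice lie above all 3M and 6M mice, while the ages overlap in 1700029F12Rik.

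The histone and fusion genes had values of the same size. Llcfc1 had 183 ± 10.01 CPM in the 3M mice, 186 ± 4.16 in the 6M mice, 204 ± 28.3 in the 12M mice and 209 ± 7.16 in the 18M mice, and its slope of 0.0137 ± 0.0048 had an adjusted p of 0.19 in edgeR. Each 18M mouse (210, 201 and 215 CPM) was above each 3M mouse (188, 172 and 190 CPM). H2bl1 had 119, 102 and 118 CPM at 3M and 114, 125 and 133 CPM at 18M, so that the groups overlapped, with an adjusted p of 0.33 in edgeR.

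Only 5 genes had a negative slope, and none of them passed the test even at an unadjusted p. 1700017B05Rik (-0.0116 ± 0.0077 log2 units per month), Slc6a21 (1700039E15Rik, -0.0066 ± 0.0045), whose name places it among the solute carriers, 1700022I11Rik (-0.0034 ± 0.006) and Zfp974 (-0.0023 ± 0.0244) were within about 2 standard errors of 0. 1700001C19Rik had the most negative value, -0.0445 ± 0.0361, beside a large spread between mice.

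Marker genes of testis cell types were set beside these values, from lists of textbook markers. The 12 haploid germ cell markers all had a positive slope, with a median of 0.0128 log2 units per month, and 0 were called. The 10 tested spermatocyte markers had 5 positive slopes and a median of 0.0002, and 5 of the 10 spermatogonial markers were positive. Of 34 genes of the axoneme and flagellum 23 were positive, with a median of 0.0048 and 0 called. These lists overlap. Spag6, with a positive slope of 0.0111, is in the spermatocyte and the axoneme lists, and Odf1 and Akap4 are in the haploid and the axoneme lists. Among the 7 Leydig cell markers 1 slope was positive, the median was -0.0577, and 3 genes of androgen synthesis and its control fell (Cyp11a1, Cyp17a1 and Lhcgr, called by edgeR). Of the 9 Sertoli cell markers 2 were positive, with 0 called. The peritubular (4), macrophage (6) and endothelial (4) markers had 0, 1 and 1 positive slopes, with 0 called. Among the coding genes of the other RIKEN testis series 57 of 72 slopes were positive, with a median of 0.0079 and 0 called, and among the 1700 genes without an NM_ transcript 196 of 236 were positive, with a median of 0.0096 and 1 called.

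By library, the genes of the 1700 clones and the haploid markers were both lowest in 3M-2 and highest in 12M-3. The same held for the coding genes of the other RIKEN testis series (-0.13 and 0.11). It also held for the 1700 genes without an NM_ transcript (-0.10 and 0.17). In 3M-2 the median gene of the 1700 clones was 0.15 log2 units below its mean over the 12 libraries, the median haploid marker was 0.11 below, and the median Leydig marker was 0.74 above. In 12M-3 the genes of the 1700 clones were 0.18 above, the haploid markers 0.24 above and the Leydig markers 0.24 below. In 18M-3 the values were 0.11 above, 0.12 above and 0.65 below. Other libraries did not show this contrast. In 12M-2 the values of the 3 lists, in the same order, were -0.02, -0.01 and -0.21, and in 18M-1 they were 0.02, -0.005 and -0.31. The sum of the haploid markers was 22236 to 24493 CPM at 3M and 23452 to 27034 CPM at 18M, and that of the Leydig markers 852 to 1017 CPM at 3M and 555 to 761 CPM at 18M. Library 6M-3 had the highest value of the Sertoli markers (0.26 above) and of the macrophage markers (0.48 above). Slopes of the marker lists without that library were not calculated. The part of cell composition in the slopes of the 1700 clone genes was not tested.

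**Figure D4:**
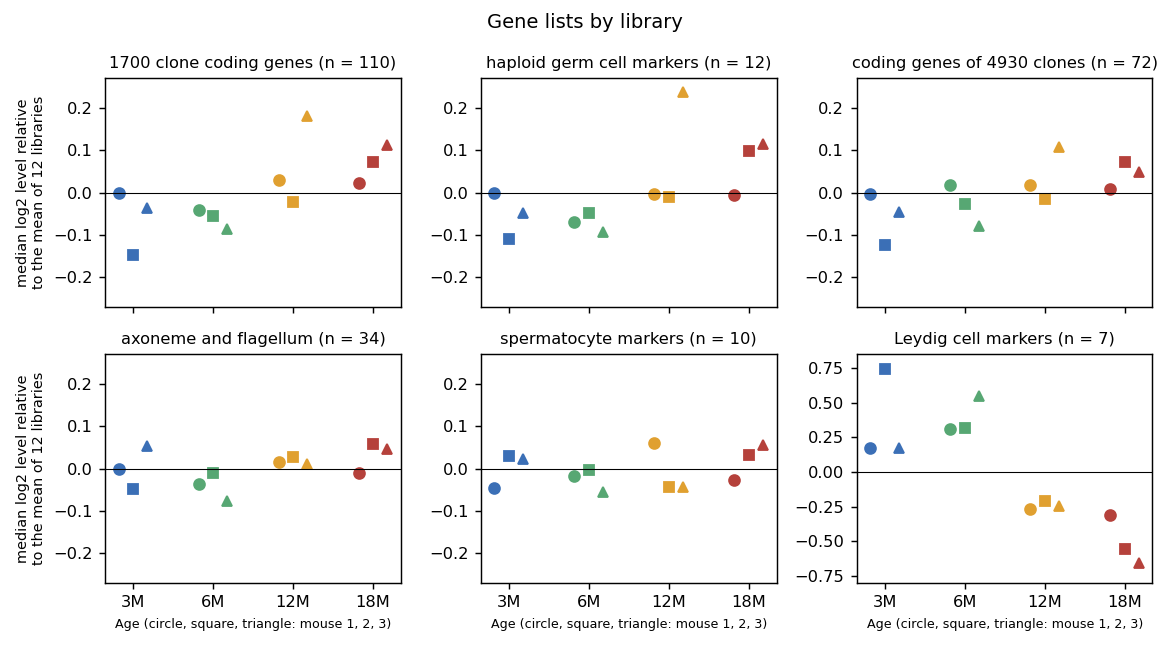
Median log2 level of 6 gene lists in each library relative to the mean of the 12 libraries (y axis), by age, with a symbol per mouse; the Leydig panel has a wider axis. The 1700 clone genes, the haploid markers and the coding genes of the other RIKEN testis series are lowest in 3M-2 and highest in 12M-3. The Leydig markers are above 0 in all 3M and 6M mice and below 0 in all 12M and 18M mice.

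Without strand information, reads of a gene and of a gene on the opposite strand cannot be told apart. In the GENCODE vM21 annotation 19 of the 111 genes share exon bases with another gene, 16 of them with one on the opposite strand. Of the 92 genes tested without such an overlap 89 had a positive slope, with a median of 0.0112. The 92 include 1700102P08Rik, whose transcript ends at the same base as deposited transcripts of Usp4 (described below).

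The genes differed in how well the RefSeq transcript describes their RNA. The 111 genes had 361 transcripts in the classes used, of which 131 were NM_, 5 were NR_ and 225 were assembled from these reads. No assembled transcript was added in 42 genes, and Slc6a21 had the most transcripts, 16. The NM_ transcripts held a median of 87.1% of the reads of a gene, and in 27 genes less than 50%. The lowest shares were 0.487% in Slc6a21, 0.518% in 1700017B05Rik, 0.978% in 1700019D03Rik, 1.23% in 1700006A11Rik and 2.97% in 1700001K19Rik, where nearly all reads went to assembled forms. The slope of 1700001K19Rik rested on these assembled forms: it had 191, 178 and 192 CPM at 3M and 217, 213 and 221 CPM at 18M, which do not overlap, with an adjusted p of 0.11 in edgeR for the slope.

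Of 337 transcripts of these genes that were tested for a slope, 0 passed an adjusted p of 0.05 in edgeR, where 0.0103% of all 58289 transcripts passed. At an unadjusted p of 0.05 or less 45 slopes were positive and 2 negative, against 7.15% of all transcripts, and without 18M-3 there were 31 in both directions together. DESeq2 called 8, all rising, against 1.28% of all. The smallest p belonged to MSTRG.19274.1, an assembled form of Tex45 (1700019B03Rik), a testis-expressed gene. It had 3.28 ± 0.229 FPKM in the 3M mice, 3.41 ± 0.331 in the 6M mice, 4.06 ± 0.556 in the 12M mice and 5.07 ± 0.69 in the 18M mice. The 18M mice (4.27, 5.41 and 5.51 FPKM) were all above the 3M mice (3.31, 3.03 and 3.49 FPKM), with an adjusted p of 0.40 in edgeR and of 0.00022 in DESeq2. The next were NM_028158 of 1700021F07Rik and NM_026315 of 1700011L22Rik, with adjusted p of 0.43 and 0.46 in edgeR. Among negative slopes the smallest p was that of MSTRG.20950.3 of 1700017B05Rik, with 14.1 ± 1.97 FPKM at 3M and 10.5 ± 1.86 at 18M (adjusted p = 0.60 in edgeR). MSTRG.11189.1 of 1700001O22Rik owed its value to 588 reads in 3M-3, against 30 to 74 in the other libraries, and MSTRG.10377.2 of Ms4a19 (1700025F22Rik), a gene of the membrane-spanning 4A family, had 1503 reads in 6M-3, 212 in 3M-3 and 53 or fewer elsewhere.

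Most genes varied little between mice of the same age. The pooled SD of log2(FPKM + 1) within ages had a median of 0.105, against 0.0996 over all coding genes at 1 FPKM or more, and the 3 genes with the largest values are described next.

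1700102P08Rik (chr9:108392834-108397767, plus strand) had the largest SD, 1.70. It had 107, 1779 and 59 reads in the 3M mice, 76, 421 and 135 in the 6M mice, 78, 52 and 116 in the 12M mice, and 97, 90 and 3983 in the 18M mice. Libraries 3M-2 and 18M-3 stood far above the others. The transcript ends at the same base as 5 of the 7 deposited transcripts assigned to Usp4, the gene of a deubiquitinase. These 7 include forms assembled from these reads. In the GENCODE vM21 annotation 1700102P08Rik shares no exon bases with Usp4. Relative to the deposited reads of the library (CPM without TMM), the sum over both genes was 247 to 287 in the 12 libraries, and in 18M-3 Usp4 alone was at 202, against 245 to 280 in the others. Usp4 holds most of that sum, and the part of shared reads in the values of 1700102P08Rik was not tested.

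1700019D03Rik (chr1:52925127-52952840, minus strand) had 234, 194 and 213 CPM in the 3M mice, 70.6, 223 and 66.9 in the 6M mice, 226, 207 and 278 in the 12M mice, and 244, 171 and 257 in the 18M mice. Libraries 6M-1 and 6M-3 were lower than the other 10. The isoforms differed between libraries: MSTRG.272.1 had 1 read in 6M-2 and 890 to 13051 in the others, MSTRG.272.6 had 7692 reads in 6M-2 and 8593 in 12M-3 and at most 108 elsewhere, and MSTRG.272.8 had 5310 reads in 3M-2 and at most 5 elsewhere. Without 6M-2, edgeR called this gene lower at 6M than at 3M by 1.63 on the log2 scale and higher at 12M than at 6M by 1.78, where 0.125% and 0.0979% of all genes passed. The remaining 6M libraries are then the low ones, and the full comparison did not pass.

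1700001C19Rik (NM_ forms within chr17:47412734-47437375, minus strand) had 218, 149 and 57.4 CPM in the 3M mice, 160, 61.1 and 143 in the 6M mice, 109, 197 and 243 in the 12M mice, and 72.6, 67.8 and 68.2 in the 18M mice. The 18M mice lay close together and within the range of 3M and 6M. The log2 fold change from 3M to 18M was -1.03 ± 0.40 (SE), with an adjusted p of 0.35 in edgeR. From 12M to 18M DESeq2 called it lower by a log2 value of -1.39 (adjusted p = 0.0066). With all libraries of these ages edgeR did not call it (adjusted p of 0.89). Without 12M-1 edgeR called it lower, where 0.0326% of all genes passed. Its assembled forms MSTRG.9148.3 and MSTRG.9148.4 had 2521 to 4154 reads in 3M-1 and 3M-2 but 38 and 217 in 3M-3, and 0 and 65 in 6M-2. Some libraries thus hold reads of these forms that others nearly lack, within a single age. MSTRG.9148.3 had 67, 3804 and 6168 reads in the 12M mice and 0, 204 and 246 in the 18M mice. MSTRG.9148.4 had 154, 1669 and 6468, and 41, 203 and 306. In the GENCODE vM21 annotation the gene shares exon bases with AI661453, a protein-coding gene on the opposite strand. Without strand information, the reads of these 2 genes cannot be told apart where they overlap.

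**Figure D5:**
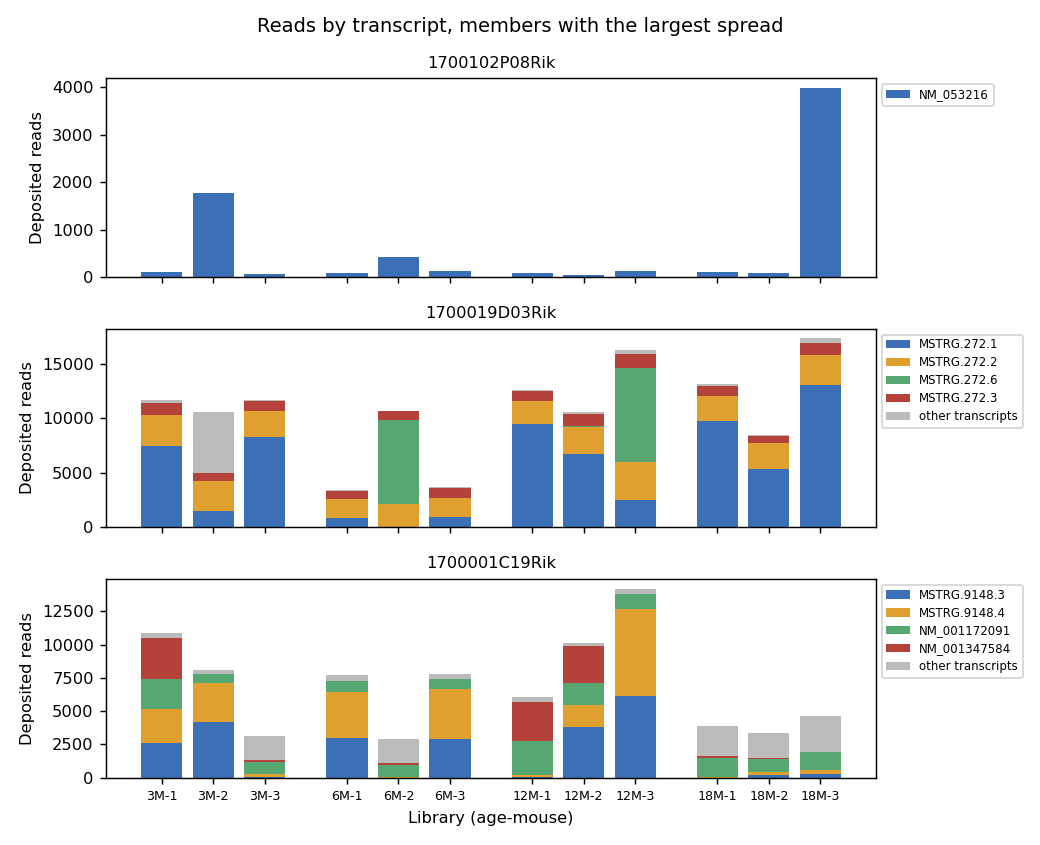
Deposited reads by transcript (stacked bars from 0) in each library for the 3 genes with the largest spread between mice of the same age; grey is the sum of all other transcripts of the gene. 1700102P08Rik is high in 3M-2 and 18M-3, and 1700019D03Rik is low in 6M-1 and 6M-3. The reads assigned to the forms of 1700001C19Rik differ widely between mice.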

How the data were processed

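Testis RNA of 12 mice was depleted of ribosomal RNA and sequenced as paired-end libraries made with a kit that does not keep the strand. The authors aligned reads with HISAT2 to mm10 and assembled and quantified transcripts with StringTie (1.3.3b in the file headers). The deposited counts are estimated counts, coverage times length over the read length of 101, rounded up by the authors, and the deposited FPKM values are scaled by the authors for length and library, with no normalization between libraries.

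Transcripts of class =, c, j or o were summed per gene. Library depth was 50924104 to 71803379 reads. The test was the quasi-likelihood F-test of edgeR 4.0.16 (R 4.3.3) on gene sums or transcripts, with TMM, filterByExpr and Benjamini-Hochberg adjustment over all features, with all 12 libraries for the slope on age and the libraries of both ages between ages. Calls needed an adjusted p of 0.05 or less, and in a pair of ages also a difference of at least 1 in size on the log2 scale. DESeq2 1.42.0 was an alternative, besides other normalizations, filters, classes of transcripts, the mouse number as a block and each library left out. The code was tested on simulated data. Each library comes from its own mouse. CPM values come from edgeR. The SE was calculated as the size of the log2 estimate divided by the square root of the F statistic of the edgeR test. Deviations by library used log2(CPM + 0.5). Figures were drawn with matplotlib 3.10.9. Genes on the opposite strand and shared exons limit single values.

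Named were the 10 genes with the highest mean FPKM, any called gene, the 5 rising and 5 falling genes with the smallest p, the 3 genes at 1 FPKM or more with the largest SD of log2(FPKM + 1) within ages, the 5 with the lowest NM_ share, and the 3 rising and 3 falling transcripts with the smallest p. Genes named for their later symbols, those with printed promoters and 1700094D03Rik were added after their values were seen. The genes and lists were chosen with earlier results of these data known.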

Additional observations from a re-analysis of the deposited data

Results flagged for a closer look

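Transcripts that the table assigns to these genes but that lie on the opposite strand (class x), in an intron (i) or just beyond the gene (p) were left out of all sums, 45 transcripts in 17 genes. Their reads exceeded 10% of the reads used in 5 genes, which is why these are listed. In Lrmda (1700112E06Rik) they came to 59.2% of the reads used, in 1700113H08Rik to 29.7%, in Cfap299 (1700007G11Rik) to 20.6%, in 1700001F09Rik to 20.2% and in Zfp974 (1700049G17Rik) to 20.0%. Groups of 3 mice are too small for a test of single outlying samples.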

How the results depend on the processing

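The number of genes of the 1700 clones called by edgeR was 0 in the slope and in all 4 comparisons of ages, and it stayed 0 with other normalizations, without a filter, with all classes of transcripts and with NM_ transcripts only. It moved with unadjusted p-values to 48 in the slope, 1 between 3M and 18M, 1 between 6M and 12M, 2 between 12M and 18M and 47 for transcripts. With DESeq2 it moved to 11 in the slope, 1 between 12M and 18M and 8 for transcripts. Leaving out 1 library gave 0 to 3 calls in the slope (3 without 12M-3), 0 to 2 between 3M and 6M and between 6M and 12M (2 without 6M-2, namely 1700019D03Rik and the near-empty 1700094D03Rik), 0 to 1 between 12M and 18M (1 without 12M-1), 0 to 0 between 3M and 18M and 0 to 0 for transcripts. The cause of these moves was not tested. The median slope was 0.00914 to 0.0121 and the median log2 fold change from 3M to 18M 0.0874 to 0.161 when 1 library was left out, and the count of genes at 1 FPKM or more stayed 110.

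Mouse numbers did not pair the samples: deviations of same-numbered libraries correlated at -0.0543 to 0.155, and 5 of 12 libraries were nearest to their own number. With the number as a block the calls were 0 in the slope and between ages, the median slope was 0.0109 and the median from 3M to 18M 0.13. Among the 10 genes named for their slopes, 3 changed sign, none of which passed the test. Over all genes of the 1700 clones, 105 of 110 slopes were positive, against 97 of 110 with NM_ transcripts only, so further genes changed sign there. That of Slc6a21 (1700039E15Rik) was 0.0744 with NM_ transcripts only. That of Zfp974 (1700049G17Rik) was 0.0028 with all classes and 0.0356 with NM_ transcripts only, and -0.0197 to 0.0115 when 1 library was left out. That of 1700022I11Rik was -0.00583 to 0.00138 when 1 library was left out. Low reads limit 1700094D03Rik, 1700102P08Rik and 1700031F05Rik, with a lowest library of 0, 52 and 58 reads.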
